A study of Mus musculus with 6 samples.

Results

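The genes described here are 47 cell cycle genes, 16 of DNA replication, 28 of mitosis and 3 transcriptional regulators, out of 55291 genes listed in the count tables of sorted mouse mammary cells. The genes were chosen by symbol from textbook roles in S phase and mitosis, with earlier results of these same libraries in view, so that their fold changes are given as a description and support nothing on their own. All 47 genes were found and all 47 passed the filter on low counts, which kept 17268 genes for testing, so the counts below cover every member. The question was how replication genes compared with mitotic genes in cells that do or do not express the adhesion receptor Gpr125 (gene Adgra3).

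RNA was sequenced from 6 libraries in 3 groups of 2, namely Gpr125-neg cells and Gpr125+ cells from either the TEB-distal or the nipple-proximal part of the gland. TEBs are terminal end buds, the bulbous tips of growing pubertal ducts. Every library came from mammary glands of 6-week-old Adgra3-lz/+ mice with no treatment named, in which 1 Adgra3 allele drives a fusion of Gpr125 to β-galactosidase, and each sample pooled tissue from 5 mice. Cells were taken from the gate of high surface CD49f, a basal cell integrin, after removal of endothelial, leukocyte and red blood cells by CD31, CD45 and Ter119. Beside these, the paper's methods list a biotinylated antibody to CD140a, the product of the fibroblast marker gene Pdgfra. Enzyme activity read with the fluorogenic substrate FDG then split Gpr125+ from Gpr125-neg cells, so that the sort followed activity of the reporter rather than the receptor itself. The Gpr125+ cells were divided by region, distal or proximal to the nipple, and the labels give no region for either Gpr125-neg library. Nothing in the labels ties a sample to a single animal, and p-values measure the spread between these pooled samples.

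The cell cycle genes fall into waves. Before S phase, E2F factors released from retinoblastoma proteins switch on the genes that license origins, unwind DNA and make deoxynucleotides. In G2, a complex of B-MYB and MuvB, followed by FOXM1, switches on the genes of chromosome condensation, spindle assembly and cytokinesis. During puberty both compartments of the TEB divide, and the cap cells at its outer edge are counted among the basal cells.

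Total counts ran from 20134890 to 37296640 per library. CPM is the count scaled to a common library size. A count of 3, the level that a count of 0 cannot be told from, equalled 0.0804 to 0.149 CPM before normalisation between libraries. On the normalised scale used below, 3 counts equalled 0.0645 and 0.102 CPM in replicates 1 and 2 of the Gpr125-neg group. Replicate 2 of the Gpr125-neg group stood apart: it had counts in 17401 genes, against 20384 to 21963 in the other 5 libraries. All 10 basal markers (Krt5, Krt14 and others) were above 1 CPM in all 6 libraries, and their sum was 3383 and 3532 CPM in Gpr125-neg, 3858 and 22190 CPM in TEB-distal and 9324 and 14720 CPM in nipple-proximal cells. The 10 endothelial markers summed to 1351 and 846.8 CPM in Gpr125-neg, 17.2 and 20.5 CPM in TEB-distal and 224 and 24.4 CPM in nipple-proximal cells, although the gate excluded CD31+ cells. The 7 pericyte markers summed to 12.6 and 27.9 CPM, 5.26 and 1.67 CPM, and 3.88 and 23.8 CPM in the same order. Robo4 was at 0 in both TEB-distal libraries, as were 5 of the 7 pericyte markers. Of these pericyte markers, Kcnj8 was also at 0 in both Gpr125-neg libraries, Rgs5 in replicate 1 and Abcc9 in replicate 2. Notch3 went the other way with overlap, at 3.16 and 1.63 CPM in TEB-distal against 2.17 and 0.0339 CPM in Gpr125-neg cells. All 10 endothelial markers were above 3 counts in both Gpr125-neg libraries. The 8 fibroblast markers summed to 28.6 and 145 CPM, 89.8 and 173 CPM, and 69 and 52.9 CPM, with Pi16 at 0 in 1 library of each group and Col1a1 at 0 in replicate 2 of the Gpr125-neg group. Of 7 fibroblast markers tested, 7 had a positive log2 fold change in TEB-distal cells, with a median of 2.01 against Gpr125-neg (4 higher without overlap) and 2.83 against nipple-proximal cells (5 higher without overlap). Over all genes tested, 14.0% and 15.2% were higher without overlap in these comparisons. The 12 luminal markers summed to 2720 and 1450 CPM, 3110 and 2740 CPM, and 2970 and 2220 CPM in the group order above. For TEB-distal against Gpr125-neg cells, 8 of them had a positive and 4 a negative log2 fold change. The TEB-distal libraries parted on Prlr (2983 and 0 counts) and Esr1 (819 and 2 counts). The endothelial and basal sums thus did not overlap between Gpr125-neg and either Gpr125+ group, and the pericyte sum did not for TEB-distal cells only. Basal markers were not uniform, with 8 positive and 2 negative log2 fold changes for TEB-distal against Gpr125-neg cells. Trp63 was lower there without overlap, at 7.33 and 6.47 against 58.1 and 8.40 CPM. Fibroblast markers differed in the comparisons of TEB-distal cells. Luminal markers were found in every library, and the part of any of these markers in the results was not tested.

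The mitotic genes summed to a higher level in TEB-distal Gpr125+ cells than in either other group, whereas the replication genes overlapped between TEB-distal and Gpr125-neg cells. The summed normalised level of the 28 mitotic genes was 66.59 and 33.02 CPM in Gpr125-neg, 236.9 and 175.9 CPM in TEB-distal and 87.27 and 67.46 CPM in nipple-proximal cells. Both TEB-distal libraries lay above the other 4, and the group mean was 4.14 times that of Gpr125-neg cells and 2.67 times that of nipple-proximal cells. Against replicate 1 of the Gpr125-neg group alone, the TEB-distal mean was 3.1 times higher, and against replicate 2 alone 6.25 times. The nipple-proximal mean was 1.55 times that of Gpr125-neg cells, but 1.16 times that of replicate 1, with the lowest nipple-proximal library close to it. With 2 libraries a group, an exact two-sided permutation test cannot give a p below 0.333. In sorted bulk samples, fewer dividing cells and less RNA per dividing cell cannot be told apart.

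**Figure D1:**
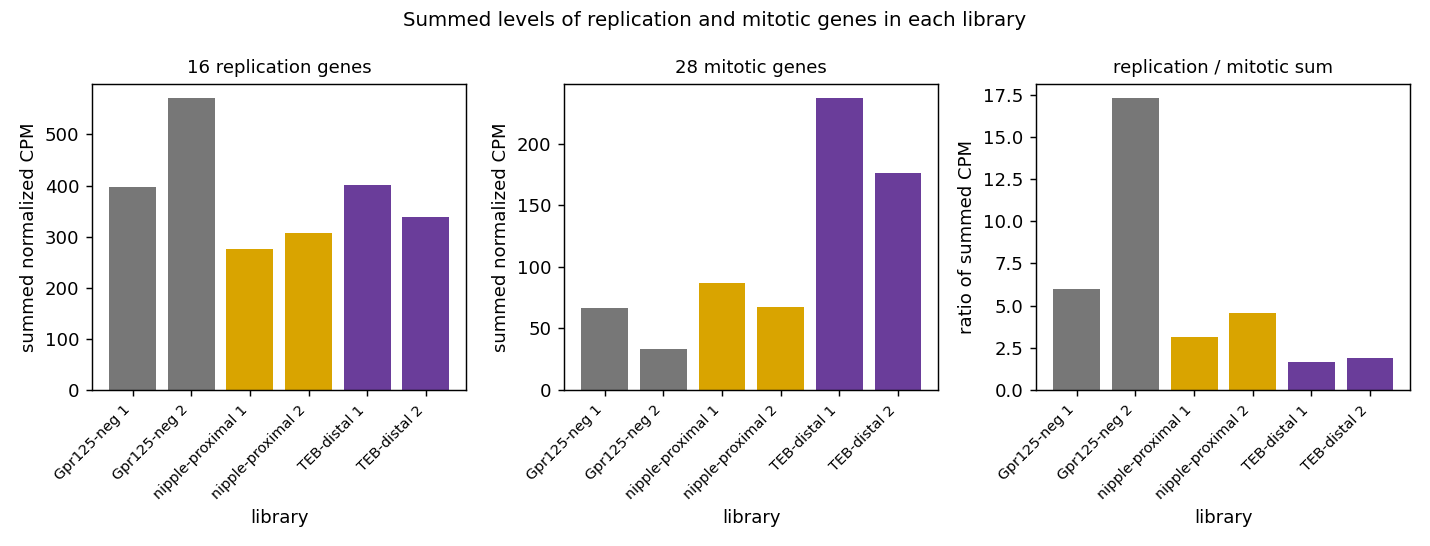
Summed CPM, normalised by TMM, of the 16 replication genes (left) and the 28 mitotic genes (middle), and the ratio of the 2 sums (right), with 1 bar for each library of Gpr125-neg, nipple-proximal and TEB-distal cells. The mitotic sum is highest in both TEB-distal libraries, at 236.9 and 175.9 CPM, and the ratio is lowest there, at 1.691 and 1.922.

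The 16 replication genes summed to 397.3 and 570.8 CPM in Gpr125-neg, 400.5 and 338.1 CPM in TEB-distal and 276.2 and 306.8 CPM in nipple-proximal cells. The Gpr125-neg and TEB-distal groups overlapped, and both nipple-proximal libraries were lowest. Pcna and Mcm7 weighed heavily on this sum: Pcna alone made up 58.4% of it in replicate 2 of the Gpr125-neg group and 18.6% in replicate 1. Without these 2 genes the remaining replication genes summed to 166.6 and 161.5 CPM, 177.2 and 208.1 CPM, and 126.2 and 139.6 CPM in the same order. On that sum the TEB-distal libraries were highest, by 1.17 times over the Gpr125-neg mean.

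The ratio of the replication sum to the mitotic sum was 5.966 and 17.29 in Gpr125-neg, 1.691 and 1.922 in TEB-distal and 3.165 and 4.548 in nipple-proximal cells. The 3 groups did not overlap on this ratio. Without Pcna and Mcm7 the ratio was 2.5 and 4.89, 0.748 and 1.18, and 1.45 and 2.07, in the same order of groups and again without overlap. On a scale that gives each gene equal weight (the median log2 CPM of the role, each gene centred on its mean over 6 libraries), replication less mitotic genes came to 0.52 and 2.5 in Gpr125-neg, -1.34 and -1.31 in TEB-distal, and -0.60 and 0.14 in nipple-proximal cells.

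Compared per exon length (RPKM, the CPM divided by exon length in kilobases), replication genes were the more abundant role, with a median level over all libraries of 2.54 RPKM and a range of 0.506 to 57.995 RPKM. Mitotic genes had a median of 0.577 RPKM, from 0.0860 RPKM for Racgap1 to 4.73 RPKM for Ccnb2, and the 3 regulators lay between 0.292 and 1.37 RPKM. The low level bears on the counts: 15 of 16 replication genes but 9 of 28 mitotic genes and 0 of 3 regulators had more than 3 counts in every library. In replicate 2 of the Gpr125-neg group, 17 of 28 mitotic genes (60.7%) had 3 or fewer counts, whereas 0 to 2 of them did in each of the other 5 libraries. Among 6447 other genes in the same range of mean level (0.609 to 9.37 CPM), 40.4% were at or under 3 counts in that library and 8.97% to 15.6% in the others. That library gave the lowest value of the 6 for 19 of 28 mitotic genes.

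**Figure D2:**
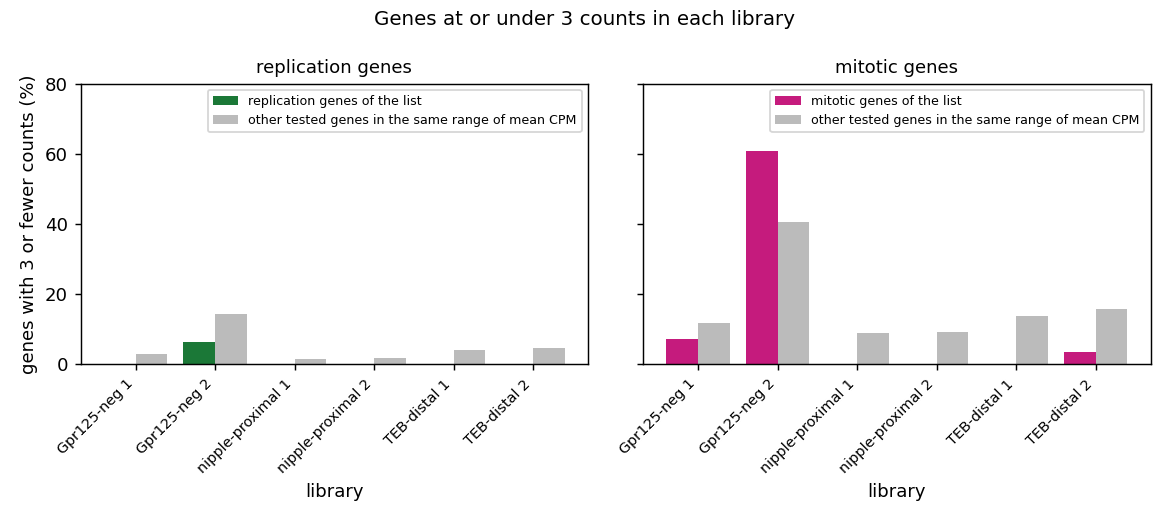
Percentage of genes with 3 or fewer counts in each library, for replication genes (left) and mitotic genes (right) of the list, beside all other tested genes in the same range of mean CPM (grey). Replicate 2 of the Gpr125-neg group has 60.7% of mitotic genes at or under 3 counts, against 40.4% of other genes of like level.

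For TEB-distal Gpr125+ against Gpr125-neg cells, the median log2 fold change was -0.03 over the 16 replication genes (7 positive, 9 negative), 2.79 over the 28 mitotic genes (25 positive, 3 negative) and 1.49 over the 3 regulators, beside 0.03 over all 17268 genes tested. Both TEB-distal libraries lay above both Gpr125-neg libraries for 20 of 28 mitotic genes and below them for 2, Plk1 and Kif20a. Of the replication genes 5 were higher without overlap (Mcm5, Mcm6, Ccne2, Rrm2 and Gins2) and 5 lower (Mcm4, Mcm7, Tyms, Tk1 and Uhrf1). Over all genes tested, 14.0% were higher and 10% lower without overlap. Among the 6447 other genes of the mitotic range of level, 19.8% were higher, with a median log2 fold change of 0.23. Without replicate 2 of the Gpr125-neg group the mitotic median was 2.01, with 24 of 28 positive, and the replication median 0.17, beside 0.23 over all genes. Without replicate 1 they were 5.52 and 0.45, beside 0.53 over all genes.

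No member passed the thresholds in this comparison (false discovery rate under 0.1 and at least 2-fold). By edgeR's quasi-likelihood test with Benjamini-Hochberg adjustment 0 of 47 members and 0% of all genes were called, and the smallest adjusted p among the members was 0.803. An unadjusted p under 0.05 was found for 6 members, all higher in TEB-distal cells: Mcm5, Ccne2, Top2a, Ccna2, Kif11 and Hmmr. Over all genes the share was 3.80% higher and 2.25% lower, and since the members were chosen with this contrast known, nothing is read from their count. DESeq2 on all 6 libraries called 6 members (Mcm5, Ccne2, Top2a, Ccna2, Kif11 and Prc1), beside 3.68% of all genes. DESeq2 on the 4 libraries compared called 2, Top2a and Kif11, beside 1.94%, and edgeR's likelihood ratio test called 3, Mcm5, Top2a and Kif11, beside 3.13%. Without replicate 1 of the Gpr125-neg group the quasi-likelihood test called 6 members (Mcm3, Mki67, Cdc20, Cenpa, Prc1 and Mybl2) and 3.85% of all genes, on the assumption that the remaining Gpr125-neg library varied as the other groups did.

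For nipple-proximal Gpr125+ against Gpr125-neg cells, which shares its reference libraries with the first comparison, the median log2 fold change was 0.08 over replication genes (9 positive, 7 negative), 1.14 over mitotic genes (22 positive, 6 negative) and 1.12 over regulators. DESeq2 size factors, which moved the median of all genes from -0.00 to -0.17 here and from 0.06 to 0.19 between regions, turned the replication median to -0.07. Without overlap, 11 mitotic genes were higher and 3 lower (Plk1, Kif23 and Kif20a), and 4 replication genes were higher (Mcm5, Ccne2, Uhrf1 and Fen1) and 4 lower (Mcm4, Mcm7, Tyms and Tk1), beside 19.9% higher and 10.8% lower of all genes. Without replicate 2 of the Gpr125-neg group the mitotic median was 0.61. By edgeR's quasi-likelihood test 0 members and 0% of genes were called, and every member had an adjusted p of 1. An unadjusted p under 0.05 was found for 3 members, Top2a, Kif11 and Hmmr, all higher, beside 2.62% of genes higher and 0.927% lower. DESeq2 on all 6 libraries called 1 member, Top2a, beside 1.20% of genes. DESeq2 on the 4 libraries compared called 0 members beside 1.05% of genes, and the likelihood ratio test 0 beside 0.151%. Without replicate 1 of the Gpr125-neg group 2 were called, Mcm3 and Prc1, beside 1.73% of genes.

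TEB-distal against nipple-proximal Gpr125+ cells is the comparison between regions, and it does not use the Gpr125-neg libraries as a reference. The median log2 fold change was 0.38 over replication genes (11 positive, 5 negative), 1.5 over mitotic genes (23 positive, 5 negative) and 0.37 over regulators, beside 0.06 over all genes and 0.43 over other genes of the mitotic range of level. Without overlap, 14 mitotic genes were higher in TEB-distal cells and 1, Bub1, was lower, and 4 replication genes were higher (Mcm6, Tyms, Rrm2 and Gins2) and 1, Uhrf1, was lower, beside 15.2% higher and 18.3% lower of all genes. By edgeR's quasi-likelihood test 0 members and 0% of genes were called, and 0 members had an unadjusted p under 0.05, beside 0.747% of genes higher and 1.46% lower. DESeq2 called 0 members on all 6 libraries (0.585% of genes) and on the 4 compared (1.54%), and the likelihood ratio test 0 (0.122%). Both TEB-distal libraries lay above all 4 others for 13 of 28 mitotic and 3 of 16 replication genes, beside 6.65% of all genes. The mean CPM was highest in TEB-distal, next in nipple-proximal and lowest in Gpr125-neg cells for 18 of 28 mitotic and 5 of 16 replication genes.

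**Figure D3:**
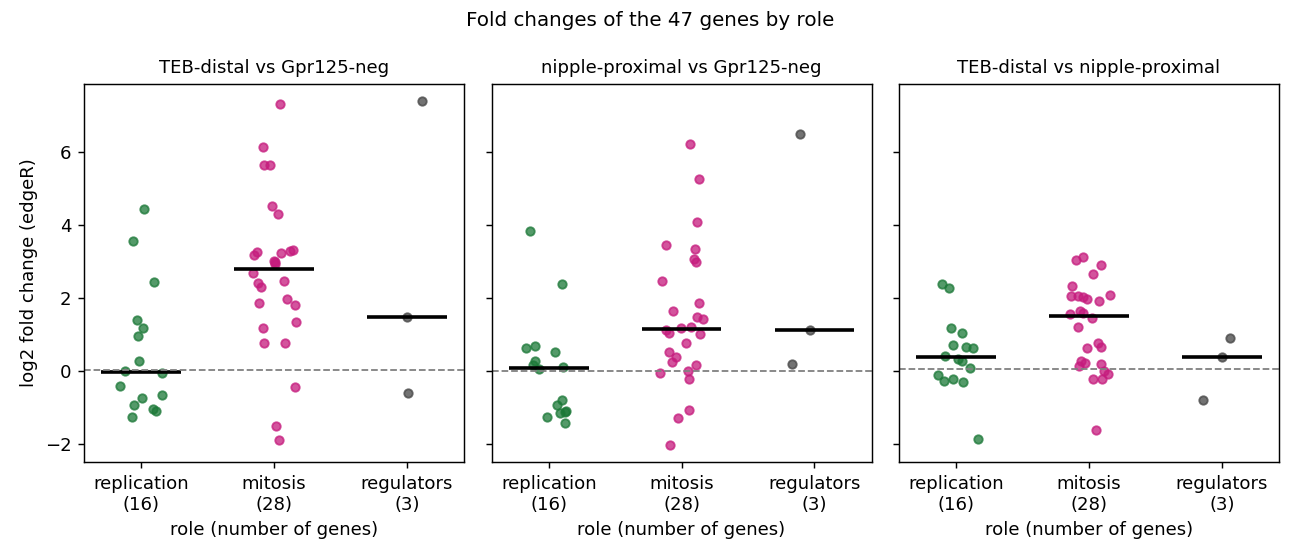
Log2 fold change by edgeR for each of the 47 genes (points) in the 3 comparisons, grouped by role, with the median of the role (bar) and of all genes tested (dashed line). Mitotic medians are 2.79, 1.14 and 1.5 from left to right, and replication medians are -0.03, 0.08 and 0.38.

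Among the replication genes, the MCM2 to MCM7 proteins form the helicase that unwinds DNA at the fork, and the genes for these 6 subunits did not move together. Mcm7 had 157 and 75.7 CPM in Gpr125-neg, 67.3 and 41.5 CPM in TEB-distal and 67.4 and 66.7 CPM in nipple-proximal cells. Mcm5 had 4.69 and 1.22 CPM in Gpr125-neg, 14.0 and 55.7 CPM in TEB-distal and 14.8 and 15.9 CPM in nipple-proximal cells. All Gpr125+ libraries were thus below the Gpr125-neg libraries for Mcm7 and above them for Mcm5 (edgeR's quasi-likelihood log2 fold change for TEB-distal against Gpr125-neg -1.10, SE 0.68, adjusted p = 0.968, and 3.56, SE 1.12, adjusted p = 0.803).

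Mcm3 showed how far the Gpr125-neg libraries parted: it had 1962 counts in replicate 1 and 5 counts in replicate 2, or 42.2 and 0.169 CPM, with 17.4 and 24.8 CPM in TEB-distal and 24.9 and 20.5 CPM in nipple-proximal cells. The other 4 libraries lay between those extremes. Mcm2 was at 8.40 CPM at its lowest, in that same library, and 34.1 CPM at its highest, in replicate 1 of the Gpr125-neg group. Mcm4 was lower in all 4 Gpr125+ libraries (7.01 to 10.8 CPM) than in the Gpr125-neg libraries (17 and 16.9 CPM), and Mcm6 ran from 5.45 to 16.5 CPM. Reads of Mcm7 include those of a locus that overlaps Cops6 and Ap4m1 and hosts Mir25 and Mir93, and library preparation did not keep strand.

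Pcna, the sliding clamp that holds DNA polymerase on its template, was the most abundant member per exon length. Its levels were 73.8 and 334 CPM in Gpr125-neg, 156 and 88.5 CPM in TEB-distal and 82.6 and 101 CPM in nipple-proximal cells. All 3 groups overlapped. The log2 fold change was -0.74 (SE 0.84) for TEB-distal and -1.15 (SE 0.84) for nipple-proximal against Gpr125-neg cells, each with an adjusted p of 1 by edgeR's quasi-likelihood test. A processed pseudogene, Pcna-ps2, had 15 to 104 counts, against 1682 to 9850 for Pcna itself.

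The cyclin E genes, whose products drive entry into S phase with CDK2, differed from each other. Ccne2 had 0.129 and 0.644 CPM in Gpr125-neg, 11.6 and 5.24 CPM in TEB-distal and 2.01 and 8.99 CPM in nipple-proximal cells, with no overlap between Gpr125-neg and either Gpr125+ group. Ccne1 had 2.5 and 0 CPM in Gpr125-neg cells and 1.47 to 4.09 CPM in the others, with overlap.

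Enzymes of deoxynucleotide supply were mixed as well. Rrm2, the small subunit of ribonucleotide reductase that is made in S phase, had 5.14 and 16.9 CPM in Gpr125-neg, 26.0 and 23.5 CPM in TEB-distal and 3.19 and 7.06 CPM in nipple-proximal cells, and both TEB-distal libraries were highest. Rrm1, its large subunit, ran from 11.9 to 78.3 CPM, with both extremes in the Gpr125-neg group. Tyms, thymidylate synthase, had 20.9 and 15.8 CPM, 12.0 and 15.7 CPM, and 7.42 and 6.17 CPM in Gpr125-neg, TEB-distal and nipple-proximal cells. The difference of nipple-proximal from Gpr125-neg cells was -1.43 on the log2 scale (SE 0.88, adjusted p = 1, edgeR's quasi-likelihood test). Tk1, thymidine kinase, was at 12.3 and 12.5 CPM in Gpr125-neg and 3.20 to 7.17 CPM in all Gpr125+ libraries.

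Gins2, part of the active helicase, had 0.990 and 2.27 CPM in Gpr125-neg, 5.34 and 12.3 CPM in TEB-distal and 1.38 and 2.02 CPM in nipple-proximal cells. Uhrf1, which keeps DNA methylation on new strands, went the other way in TEB-distal cells, with 2.28 and 2.10 CPM, 0.234 and 1.60 CPM, and 3.0 and 3.72 CPM in the same order. Its log2 fold change was -1.25 (SE 1.66) for TEB-distal against Gpr125-neg and -1.87 (SE 1.68) for TEB-distal against nipple-proximal cells, with an adjusted p of 1 by edgeR's quasi-likelihood test for both. Fen1, the flap endonuclease that trims Okazaki fragments, stayed within 0.881 to 1.84 CPM.

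**Figure D4:**
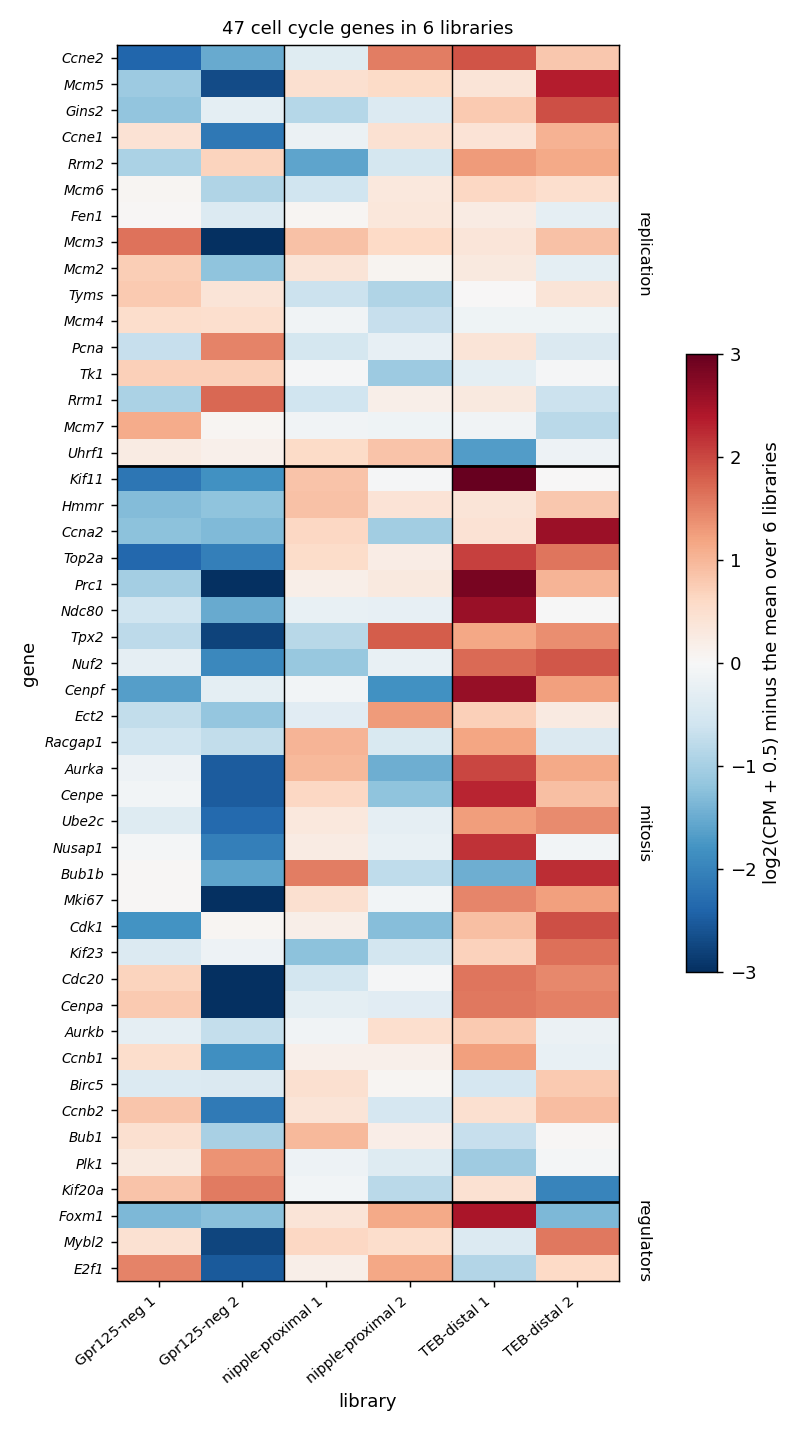
Level of each of the 47 genes (rows) in each library (columns) as log2(CPM + 0.5) less the gene's mean over 6 libraries, with genes ordered within role by log2 fold change of TEB-distal against Gpr125-neg cells. Mitotic genes are mostly red in the 2 TEB-distal columns and blue in replicate 2 of the Gpr125-neg group, which gave the lowest value for 19 of 28, whereas replication genes show no common pattern.

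Among the mitotic genes, those of chromosome structure and the kinetochore were mostly highest in TEB-distal cells. Mki67, whose protein Ki-67 coats mitotic chromosomes, had 4.28 and 0.0339 CPM in Gpr125-neg, 12.3 and 10.5 CPM in TEB-distal and 6.04 and 3.95 CPM in nipple-proximal cells. Both TEB-distal libraries were above all others, and the Gpr125-neg values rest on 199 and 1 counts. The log2 fold change was 2.40 (SE 1.83) for TEB-distal and 1.21 (SE 1.76) for nipple-proximal against Gpr125-neg cells (adjusted p = 1 for both, edgeR's quasi-likelihood test).

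Top2a, the topoisomerase that untangles sister chromatids, is given because of its values and outside the rule for named genes. It had 7 and 9 counts in Gpr125-neg, 341 and 283 in TEB-distal and 89 and 72 in nipple-proximal cells. The 3 groups were apart, and here the Gpr125-neg libraries were alike. Its log2 fold change was 5.64 (SE 1.53) for TEB-distal and 4.07 (SE 1.42) for nipple-proximal against Gpr125-neg cells, with adjusted p values of 0.803 and 1 by edgeR's quasi-likelihood test.

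Cenpf, a kinetochore protein, had 0.645 and 2.44 CPM in Gpr125-neg, 21.5 and 7.86 CPM in TEB-distal and 2.90 and 0.518 CPM in nipple-proximal cells. Nuf2, of the NDC80 complex that grips microtubules, had 1.42 and 0.102 CPM, 7.02 and 7.90 CPM, and 0.540 and 1.46 CPM in the same order. These were 2 of the 3 largest differences without overlap between regions, 3.10 (SE 1.54) for Cenpf and 2.89 (SE 1.80) for Nuf2 on the log2 scale, with an adjusted p of 1 by edgeR's quasi-likelihood test. Ndc80, its partner, had 8.19 and 0.919 CPM in TEB-distal and at most 0.737 CPM in the other libraries. Cenpa, the centromeric histone, had 8.03 and 0.0339 CPM in Gpr125-neg, 14.3 and 13.6 CPM in TEB-distal and 3.54 and 3.39 CPM in nipple-proximal cells. Cenpe, a kinetochore motor, was likewise highest in both TEB-distal libraries, at 15.2 and 5.55 CPM.

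The spindle motors and spindle builders were high in TEB-distal cells but uneven within that group. Kif11, the motor that pushes spindle poles apart, had 0 and 4 counts in Gpr125-neg, 505 and 52 in TEB-distal and 72 and 36 in nipple-proximal cells. All Gpr125+ libraries were above both Gpr125-neg libraries, and the TEB-distal pair spanned 19.7 and 1.77 CPM. The log2 fold change of 7.29 (SE 2.43, adjusted p = 0.803, edgeR's quasi-likelihood test) therefore rests on 4 counts in the reference.

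Hmmr, a spindle and hyaluronan-binding protein, had 0 and 1 counts in Gpr125-neg cells against 28 and 48 in TEB-distal and 36 and 24 in nipple-proximal cells. The ratio of CPM was 105 (95% interval 18.3 to 4200, counting error only) for TEB-distal and 110 (18.9 to 4400) for nipple-proximal over Gpr125-neg cells. Reads carry no molecular identifiers, so these intervals do not cover amplification. Tpx2 and Nusap1, microtubule binders of the spindle, both had 2 or fewer counts in replicate 2 of the Gpr125-neg group. Tpx2 had 7.68 and 9.12 CPM in TEB-distal cells but was highest in 1 nipple-proximal library, at 12.4 CPM, and Nusap1 was highest in 1 TEB-distal library, at 9.94 CPM.

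The genes of cytokinesis included both directions. Prc1, which bundles the microtubules of the central spindle, had 1.89 and 0 CPM in Gpr125-neg, 34.5 and 9.33 CPM in TEB-distal and 5.01 and 5.46 CPM in nipple-proximal cells. Kif23, a motor of the same structure, had 0.732 and 0.982 CPM in Gpr125-neg, 2.14 and 4.60 CPM in TEB-distal and 0.196 and 0.612 CPM in nipple-proximal cells. The regions differed by 3.05 on the log2 scale (SE 1.78, adjusted p = 1, edgeR's quasi-likelihood test). Kif20a, a further motor of the midzone, was instead highest in Gpr125-neg cells, with 3.33 and 5.79 CPM against 2.42 and 0.0340 CPM in TEB-distal and 1.52 and 0.706 CPM in nipple-proximal cells. Its log2 fold changes were -1.89 (SE 1.99) and -2.03 (SE 2.00), with an adjusted p of 1 by edgeR's quasi-likelihood test. Racgap1 and Ect2, which turn on RhoA at the division plane, were scarce, with at most 1.64 and 2.40 CPM.

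The cyclins and kinases that drive mitosis were mixed. Ccnb2, a cyclin partner of CDK1 and the most abundant mitotic member per exon length, had 10.8 and 0.948 CPM in Gpr125-neg, 8.34 and 11.6 CPM in TEB-distal and 7.76 and 3.95 CPM in nipple-proximal cells. Replicate 1 of the Gpr125-neg group was within the TEB-distal range. Ccnb1 overlapped in all comparisons, from 0.0339 to 4.02 CPM. Ccna2, cyclin A2, had 5 and 2 counts in Gpr125-neg, 36 and 231 in TEB-distal and 34 and 4 in nipple-proximal cells, and its log2 fold change for TEB-distal against Gpr125-neg cells was 5.65 (SE 2.19, adjusted p = 0.803, edgeR's quasi-likelihood test). Cdk1 itself had 0.925 and 4.64 CPM, 8.69 and 18.4 CPM, and 5.06 and 1.55 CPM in Gpr125-neg, TEB-distal and nipple-proximal cells.

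Plk1, the polo kinase of mitotic entry and the third most abundant mitotic member, went the other way from most mitotic genes. It had 5.68 and 12.3 CPM in Gpr125-neg, 1.91 and 4.36 CPM in TEB-distal and 4.03 and 3.34 CPM in nipple-proximal cells, so that all Gpr125+ libraries were below both Gpr125-neg libraries. The log2 fold change was -1.52 (SE 1.30) for TEB-distal and -1.28 (SE 1.30) for nipple-proximal cells (adjusted p = 1 for both, edgeR's quasi-likelihood test). Plk1 and Kif20a were 2 of 4 mitotic genes with over 100 counts in replicate 2 of the Gpr125-neg group, with 362 and 171, beside Cdk1 with 137 and Birc5 with 124. Aurka, the kinase of spindle poles, had 2.02 and 0 CPM, 10.7 and 5.65 CPM, and 4.96 and 0.518 CPM in the same order, whereas Aurkb of the chromosomal passenger complex ranged over 0.406 to 2.07 CPM and Birc5, its partner survivin, over 3.94 to 10.4 CPM.

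The spindle checkpoint and its target were split. Bub1, a checkpoint kinase, had 0.968 and 0.0339 CPM in Gpr125-neg, 0.156 and 0.579 CPM in TEB-distal and 1.57 and 0.706 CPM in nipple-proximal cells, and was the only mitotic gene lower in TEB-distal than in nipple-proximal cells without overlap (log2 fold change -1.62, SE 2.05, adjusted p = 1, edgeR's quasi-likelihood test). Bub1b was within 0.102 to 7.93 CPM, with both TEB-distal libraries far apart at 0.156 and 7.93 CPM. Cdc20, the activator of the anaphase-promoting complex that the checkpoint restrains, had 8.54 and 0.135 CPM, 16.8 and 14.9 CPM, and 3.34 and 5.04 CPM in Gpr125-neg, TEB-distal and nipple-proximal cells, with both TEB-distal libraries highest. Ube2c, the ubiquitin-conjugating enzyme of that complex, had 1.68 and 0.0677 CPM, 6.24 and 7.05 CPM, and 3.04 and 1.84 CPM, with no overlap among the 3 groups.

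The 3 regulators varied most between replicates: the SD of a role's centred median between replicates was 2.01 on the log2 scale for regulators, 0.977 for mitotic and 0.186 for replication genes. Foxm1 had 0 and 1 counts in Gpr125-neg, 168 and 0 in TEB-distal and 24 and 49 in nipple-proximal cells. The TEB-distal libraries thus gave the highest and a null value. The ratio for nipple-proximal over Gpr125-neg cells was 133 (95% interval 23.2 to 5340, counting error only). For TEB-distal cells it was 232 (41.1 to 9220), carried by 1 library. Mybl2, which encodes B-MYB, had 193 and 0 counts, 52 and 283, and 95 and 93 in the same order, and E2f1 had 428 and 3, 35 and 138, and 69 and 152. Both overlapped between TEB-distal and Gpr125-neg cells, with edgeR log2 fold changes of 1.49 (SE 2.18) and -0.62 (SE 1.89) and an adjusted p of 1. With 3 genes, the median of this role moved between -0.04 and 6.25 as single libraries were left out.

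Promoter sequence did not enter the choice of the genes, and its motifs were counted by role, as a description. Of the 47 members, 39 had a RefSeq promoter (GRCm38.p6, 250 bases before to 50 after the start), namely 13 replication, 24 mitotic and 2 regulator genes. The cell cycle homology region (CHR), through which MuvB complexes bind G2 and M genes, was searched as TTTGAA or TTCGAA on both strands and was present in 19 of 24 mitotic promoters (79.2%), 3 of 13 replication promoters (23.1%), 13.9% of 11520 promoters of tested genes and 19.2% of all 32851 promoters. Within 60 bases of the start it was present in 18 of 24 mitotic and 0 of 13 replication promoters, beside 3.73% for tested genes. The CCAAT box, searched on both strands as CCAAT, was present in 83.3% of mitotic, 69.2% of replication and 37.4% of all promoters.

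An E2F site, searched on both strands as TTTCCCGC, TTTCGCGC, TTTGCCGC or TTTGGCGC, was present in 4 of 13 replication promoters (30.8%), those of Mcm3, Mcm5, Mcm6 and Mcm7. It was present in 1 of 24 mitotic promoters (4.17%), that of Cdk1, beside 3.91% of promoters of tested genes and 2.26% of all promoters. Neither regulator promoter (Mybl2, E2f1) held any of the 3 motifs. Each motif was counted alone, and matches of different motifs may share bases. A match is a run of letters and not a bound site.

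**Figure D5:**
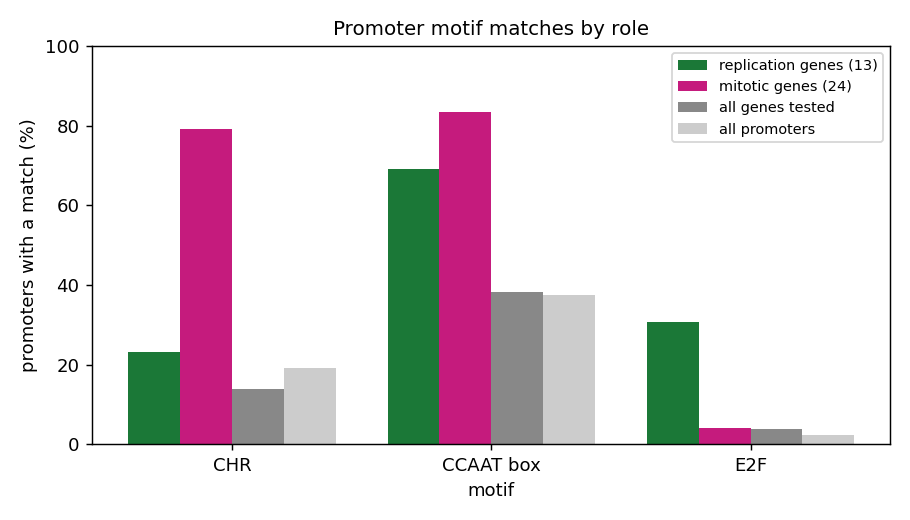
Percentage of promoters (300 bases each) with at least 1 match to each motif, for the replication genes, the mitotic genes, all tested genes and all RefSeq promoters. CHR matches are in 79.2% of mitotic and 23.1% of replication promoters, and E2F matches in 4.17% and 30.8%.

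The promoters of the most abundant replication helicase gene and the most abundant mitotic gene are shown whole, 5′ to 3′ on the strand of the gene, to set both kinds of promoter side by side. That of Mcm7 (GRCm38.p6, chr5:138171834-138172133, minus strand) has its E2F matches in capitals, and that of Ccnb2 (chr9:70421505-70421804, minus strand) its CHR and CCAAT matches. The Mcm7 promoter also holds 1 CHR match far from the start and 3 CCAAT matches, which are not marked, and 1 of the CCAAT matches shares its first base with an E2F match.
Mcm7: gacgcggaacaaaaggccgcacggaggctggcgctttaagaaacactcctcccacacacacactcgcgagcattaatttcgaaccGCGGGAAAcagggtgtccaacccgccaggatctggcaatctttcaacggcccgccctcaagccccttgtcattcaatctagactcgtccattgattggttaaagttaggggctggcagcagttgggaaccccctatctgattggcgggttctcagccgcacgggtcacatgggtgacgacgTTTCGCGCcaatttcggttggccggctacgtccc
Ccnb2: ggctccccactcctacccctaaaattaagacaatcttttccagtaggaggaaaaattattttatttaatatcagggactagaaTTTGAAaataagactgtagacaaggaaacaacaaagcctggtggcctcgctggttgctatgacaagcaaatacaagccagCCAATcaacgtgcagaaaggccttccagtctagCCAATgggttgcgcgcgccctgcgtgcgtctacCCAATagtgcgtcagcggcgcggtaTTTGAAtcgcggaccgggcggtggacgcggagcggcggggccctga

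The CHR match nearest the start is shown in capitals within 40 bases, on the strand of the gene, for 10 of the 19 mitotic members with a match, namely those of the rule for named genes and Top2a. They include genes that were high in both TEB-distal libraries (Cdc20, Cenpf, Mki67, Top2a) and genes that were not (Plk1, Bub1). TTCAAA is TTTGAA read on the opposite strand. The windows lie, in GRCm38.p6, at chr9:70421528-70421567 (Ccnb2, minus strand), chr4:118437339-118437378 (Cdc20, minus strand), chr7:122159445-122159484 (Plk1, plus strand), chr19:37376346-37376385 (Kif11, plus strand), chr11:40733407-40733446 (Hmmr, minus strand), chr1:189688062-189688101 (Cenpf, minus strand), chr9:61946775-61946814 (Kif23, minus strand), chr2:127831823-127831862 (Bub1, minus strand), chr7:135716455-135716494 (Mki67, minus strand) and chr11:99024190-99024229 (Top2a, minus strand).
Ccnb2: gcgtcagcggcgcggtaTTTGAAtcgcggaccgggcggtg
Cdc20: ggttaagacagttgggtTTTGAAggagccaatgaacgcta
Plk1: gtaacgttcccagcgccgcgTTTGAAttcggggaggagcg
Kif11: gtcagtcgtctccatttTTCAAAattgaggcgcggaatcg
Hmmr: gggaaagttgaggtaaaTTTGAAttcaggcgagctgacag
Cenpf: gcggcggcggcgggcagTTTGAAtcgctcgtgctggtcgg
Kif23: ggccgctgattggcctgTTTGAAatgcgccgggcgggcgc
Bub1: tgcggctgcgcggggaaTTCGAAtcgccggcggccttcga
Mki67: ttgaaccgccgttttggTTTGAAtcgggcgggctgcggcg
Top2a: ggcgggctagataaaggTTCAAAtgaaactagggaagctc

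Plk1 and Bub1, which were not higher in TEB-distal cells, have CHR letters near their start as do Cdc20, Cenpf and Top2a, which were. No promoter was in the RefSeq table for Mcm4, Ccne2, Gins2, Ccna2, Aurkb, Kif20a, Tpx2 and Foxm1.

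Other genes of the same processes were read from lists of known replication and mitosis genes outside the 47. Of 51 further mitotic genes tested, 40 had a positive log2 fold change in TEB-distal against Gpr125-neg cells, with a median of 2.34, and 27 were higher without overlap and 0 lower, beside the 14.0% and 10% of all genes. In nipple-proximal against Gpr125-neg cells the median was 0.70, with 21 higher and 4 lower, and between regions it was 0.88, with 18 higher and 3 lower. Over all genes, 19.9% were higher and 10.8% lower without overlap in nipple-proximal cells, and 15.2% and 18.3% between regions. None passed the thresholds by edgeR's quasi-likelihood test, and 11, 8 and 1 had an unadjusted p under 0.05 in the 3 comparisons, all higher. Over all genes, 3.80%, 2.62% and 0.747% were higher at that p. Those with the smallest p were Iqgap3, a scaffold of dividing cells, with 1 and 1 counts in Gpr125-neg, 173 and 163 in TEB-distal and 5 and 26 in nipple-proximal cells, and Kif2c, a microtubule depolymerase, with 0 and 0, 172 and 181, and 2 and 42. Cks2, a subunit of CDK complexes, had 327 and 454, 1321 and 757, and 146 and 191 counts, and was the gene at p under 0.05 between regions. Kpna2, an importin, had 1187 and 2153, 1166 and 378, and 344 and 518 counts, with log2 fold changes of -0.76 for TEB-distal and -1.25 for nipple-proximal against Gpr125-neg cells.

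Of 44 further replication genes tested, 33 had a positive log2 fold change in TEB-distal against Gpr125-neg cells, with a median of 0.62, and 10 were higher and 2 lower without overlap. In nipple-proximal against Gpr125-neg cells the median was 0.01 (22 positive, 22 negative), and between regions it was 0.77, with 15 higher and 3 lower. None passed the thresholds by edgeR's quasi-likelihood test, and 3, 0 and 0 had an unadjusted p under 0.05. Chek1, the checkpoint kinase of stalled forks, had 164 and 23 counts in Gpr125-neg, 950 and 182 in TEB-distal and 203 and 457 in nipple-proximal cells. Cdca7, a cofactor of DNA methylation at replication, had 866 and 1010, 203 and 337, and 318 and 472 counts, and on the CPM scale it was lower without overlap in TEB-distal cells, while nipple-proximal cells overlapped with Gpr125-neg cells. The replication list of 16 and this longer list thus differed in the sign of their median for TEB-distal against Gpr125-neg cells, at -0.03 and 0.62.

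The regulators upstream and the machine downstream had medians nearer 0 than those of the mitotic genes against Gpr125-neg cells. Of 16 tested genes of the E2F, RB and DREAM families, 7 had a positive and 9 a negative log2 fold change for TEB-distal against Gpr125-neg cells (median -0.22), and 8 and 8 for nipple-proximal cells (median 0.11). E2f7, an atypical E2F repressor, had an unadjusted p under 0.05 against Gpr125-neg cells for both Gpr125+ groups, with 0 and 0 counts in Gpr125-neg, 13 and 61 in TEB-distal and 33 and 9 in nipple-proximal cells. Lin9, a MuvB subunit, did so in the opposite direction for nipple-proximal cells, with 140 and 1741, 481 and 176, and 40 and 52 counts (log2 fold change -3.81, SE 1.47). The E2F partner gene Tfdp1 had 2215 and 2504, 1039 and 908, and 1232 and 1374 counts. Of 16 genes of the anaphase-promoting complex, which Cdc20 activates, the median was 0.03 for TEB-distal and -0.07 for nipple-proximal against Gpr125-neg cells, with 0 higher and 3 lower without overlap for TEB-distal and 3 higher and 0 lower for nipple-proximal cells. None of these genes passed the thresholds by edgeR's quasi-likelihood test. An unadjusted p under 0.05 was found for 1 E2F family gene with TEB-distal and 2 with nipple-proximal cells, and for 0 genes of the complex. Over all genes, 3.80% were higher and 2.25% lower at that p with TEB-distal cells, and 2.62% and 0.927% with nipple-proximal cells.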

How the data were processed

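The authors aligned SMART-Seq HT reads to mm10 with STAR (2.7.3 in the submitters' processing notes, another release in the paper's methods) and deposited raw HTSeq counts per gene, without strand. The annotation release is not given in the sources used here. The methods also give other ages and numbers of mice than the labels used here. Members and further gene lists were chosen with earlier results of these data known. Counts of all 6 libraries were fitted in R (4.3.3) with edgeR (4.0.16): TMM, filterByExpr (17268 of 55291 genes), robust dispersions and quasi-likelihood tests, with Benjamini-Hochberg adjustment over all tested genes. Thresholds were a false discovery rate of 0.1 and 2-fold, and the biological coefficient of variation was 0.967. CPM uses TMM library sizes, and RPKM divides it by exon length (GENCODE M21). DESeq2 (1.42.0), its size factors, other filters, the likelihood ratio test, the 4 compared libraries, the replicate number as a block, non-robust estimation and each library left out were alternatives. The fit was also run on simulated data. There the direction of large changes was required at the spread of these libraries, but their recovery only at a smaller spread. That check therefore cannot show how many true changes the tests missed here. Full values are given for Pcna, Mki67, the regulators, the 3 most abundant members per role, up to 3 members per direction and comparison with the largest fold change without overlap, and those with 3 or fewer counts in 2 or more libraries. In all, 14 of 47 members overlap another gene, whose reads cannot be told apart without strand.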

Additional observations from a re-analysis of the deposited data

Results flagged for a closer look

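In 2 of the 47 genes both TEB-distal libraries lay on one side of both Gpr125-neg libraries and both nipple-proximal libraries on the other. Kif23 was higher in TEB-distal (log2 fold change 1.97) and lower in nipple-proximal cells (-1.07), and the regions differed by 3.05 (SE 1.78). Uhrf1 was lower in TEB-distal (-1.25) and higher in nipple-proximal cells (0.62), a difference of -1.87 (SE 1.68). The difference itself was tested in the fit over all genes, and neither passed (edgeR's quasi-likelihood test, unadjusted p = 0.125 and 0.300, adjusted p = 1 for both). Groups of 2 libraries are too small for a check of single outlying samples.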

How the results depend on the processing

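Members called were 0 in all 3 comparisons under the replicate block, non-robust estimation, DESeq2 size factors, both looser filters, and a quasi-likelihood fit to 4 libraries. For TEB-distal against Gpr125-neg cells, 6 were called by DESeq2 on all 6 libraries, 2 by DESeq2 on 4 and 3 by the likelihood ratio test, and for nipple-proximal cells 1 by DESeq2 on all 6. The difference between replicates 1 and 2 correlated across genes between groups at -0.03, 0.19 and -0.00 for the 3 comparisons. With 1 such difference per group, this check cannot tell whether same-numbered libraries shared a preparation. The main fit left the replicate number out. The replicate block changed no call and moved the replication median for TEB-distal against Gpr125-neg cells from -0.03 to 0.21.

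As each library was left out in turn, for TEB-distal against Gpr125-neg cells the members called ran from 0 to 6, and the medians from -0.19 to 0.45 for replication, 2.01 to 5.52 for mitotic and -0.043 to 6.25 for regulator genes. Genes higher without overlap ran from 5 to 9 (replication) and 20 to 25 (mitotic), and replication genes lower from 5 to 7. Leaving out a library of a compared group leaves 1 library there, which makes separation without overlap easier. In every comparison such counts can therefore hardly fall below those of the main fit. No share over all genes is given beside them, and no conclusion is drawn from their ranges. For nipple-proximal against Gpr125-neg cells, 0 to 2 were called, the medians ran from -0.24 to 0.11, 0.61 to 4.55 and 0.13 to 5.49, genes higher from 4 to 8 and 11 to 23, and lower from 4 to 8 and 3 to 7. Between regions, 0 were called, the medians ran from 0.26 to 0.52, 0.97 to 1.90 and -1.17 to 0.40, genes higher from 4 to 9 and 14 to 20, and lower from 1 to 6 and 1 to 5. The centred replication less mitotic level ran from 0.61 to 2.95 in Gpr125-neg, -1.80 to -0.79 in TEB-distal and -0.74 to 0.23 in nipple-proximal cells. The mitotic medians kept a positive sign throughout, and both extremes against Gpr125-neg cells came from the libraries of that group. Among the genes with the largest fold changes without overlap in each comparison, Kif11 passed the thresholds under 3 alternatives and Ccna2 under 1, both for TEB-distal against Gpr125-neg cells. The other members called under an alternative that kept all libraries of the groups compared (Top2a, Mcm5, Ccne2 and Prc1) are given with the comparisons.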
